A study of Mus musculus with 15 samples.

Results

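The genes described here encode the structural proteins of the basement membrane and the integrin receptors that bind it. The set was chosen by name and holds 10 laminin chains, the 6 collagen IV chains, collagen XVIII (Col18a1), both nidogens, the proteoglycans Hspg2 (perlecan) and Agrn (agrin), the dystroglycan gene Dag1, 9 integrin alpha subunits and 6 integrin beta subunits. All 37 had a probe set that the array annotation assigns to a single gene, out of 19938 such genes in the series. Each of the 37 had exactly 1 such probe set, so no choice between probe sets was needed. All 37 passed the filter on dim genes, an intensity above 97.8 in at least 3 of the 15 arrays, and 22 were above it in all 15. In 6 of them (Lamc3, Col4a3, Col4a4, Col4a6, Itga7 and Itga8) every group mean was below the table's median intensity of 187.5, and changes in these dim genes are understated by the scale used.

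The mice carried an EGFP reporter named for Sox9, a transcription factor of pancreatic progenitors and duct cells, or for Ngn3 (the gene Neurog3), a transcription factor of endocrine progenitors. Reporter males were crossed to CD1 females, and CD1 is the strain labelled for every array. Dissociated pancreas was sorted by flow cytometry for bright GFP, which gave GFP+ cells of Ngn3-EGFP embryos at e15.5 (Ngn3+) and GFP+ cells of Sox9-EGFP mice at e10.5, at e15.5 and at p23, the 23rd day after birth (Sox9+). The GFP- cells of Sox9-EGFP pancreas at p23 were the fifth group. Each group had 3 arrays, and each array held cells pooled from several animals, so p-values measure the spread between pools. The GFP- group is all cells without the reporter, not a cell type. In sorted bulk samples, fewer cells of a type and less RNA per cell cannot be told apart.

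A basement membrane is the thin sheet of matrix beneath an epithelium and around blood vessels. Laminins, trimers of an alpha, a beta and a gamma chain, form its first network on the cell surface, collagen IV trimers form a second network that gives it strength, and nidogens and perlecan link the networks. Integrins are dimers of an alpha and a beta subunit that connect this matrix to the cytoskeleton, and dystroglycan is a further laminin receptor. In the pancreas, progenitors, ducts and acini rest on such a sheet, and endocrine cells leave the epithelium as they form islets.

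Promoter sequences are shown for a pair of collagen IV genes that share a promoter and for the beta subunit genes that changed most. They come from RefSeq's table on GRCm38.p6 and run 5′ to 3′ on the gene's strand, from 250 bases before to 50 after the annotated start. Capitals mark GGGCGG or CCGCCC, the letters of an Sp1 site on either strand, and CCAAT or ATTGG, the CCAAT box on either strand. The windows lie at chr8:11312777-11313076 on the minus strand for Col4a1, chr8:11312555-11312854 on the plus strand for Col4a2, chr2:60722554-60722853 on the minus strand for Itgb6 and chr12:119238227-119238526 on the minus strand for Itgb8.
Col4a1: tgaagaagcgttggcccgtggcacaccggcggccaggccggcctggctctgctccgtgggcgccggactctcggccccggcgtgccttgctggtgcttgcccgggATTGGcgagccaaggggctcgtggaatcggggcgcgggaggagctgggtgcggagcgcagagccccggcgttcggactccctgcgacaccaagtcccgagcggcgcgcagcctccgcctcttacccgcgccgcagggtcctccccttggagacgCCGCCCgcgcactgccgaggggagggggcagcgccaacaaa
Col4a2: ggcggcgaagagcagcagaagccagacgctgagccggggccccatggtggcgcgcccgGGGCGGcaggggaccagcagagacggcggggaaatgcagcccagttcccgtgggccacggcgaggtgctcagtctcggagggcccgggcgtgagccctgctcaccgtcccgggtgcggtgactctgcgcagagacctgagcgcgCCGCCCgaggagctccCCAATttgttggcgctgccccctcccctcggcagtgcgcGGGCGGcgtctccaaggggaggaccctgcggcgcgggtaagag
Itgb6: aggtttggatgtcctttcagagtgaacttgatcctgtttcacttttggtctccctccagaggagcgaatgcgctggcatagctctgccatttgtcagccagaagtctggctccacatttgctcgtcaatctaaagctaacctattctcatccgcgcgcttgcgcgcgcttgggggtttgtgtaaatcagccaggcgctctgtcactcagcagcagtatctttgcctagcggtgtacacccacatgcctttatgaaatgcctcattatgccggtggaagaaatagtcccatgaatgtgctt
Itgb8: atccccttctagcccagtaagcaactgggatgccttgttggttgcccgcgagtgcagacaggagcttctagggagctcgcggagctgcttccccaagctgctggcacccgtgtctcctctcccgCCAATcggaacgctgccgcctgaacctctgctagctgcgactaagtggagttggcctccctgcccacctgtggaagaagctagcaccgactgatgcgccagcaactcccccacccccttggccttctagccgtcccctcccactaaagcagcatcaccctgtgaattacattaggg
The annotated starts used for the Col4a1 and Col4a2 windows lie 21 bases apart on opposite strands, so the windows share 78 bases. In that shared stretch is 1 of the marked Sp1 matches. The Itgb6 window holds neither motif, and the Itgb8 window holds 1 CCAAT match.

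Of the 37 genes, 26 had a window in RefSeq's set of promoters, 32 windows in all. The Sp1 letters were found in 21 of these 32 windows (65.6%), against 35.7% of all 32851 windows. CCAAT was found in 10 of the 32 (31.2%), against 37.4% of all windows. The letters TATAAA, the core of a TATA box, were found in none of the 32, against 13.6% of all windows. The GC content of the gene set's windows ran from 38.3% (the second Itgb6 window) to 83.3% (an Agrn window), where the median over all windows was 52.7%. The Sp1 letters are all G and C and the TATAAA letters all A and T, and the shares were not adjusted for GC content. Most of the gene set's windows lay above that median. Some genes count with several windows, and those of Dag1 and of Lamb3 overlap. These matches describe the letters in the windows and are not binding sites. Col4a5 and Col4a6 also start back to back on the X chromosome. The annotated starts used for their windows lie 1343 bases apart, and the windows do not overlap.

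Some arrays stood apart from others with the same label. The embryonic globin Hbb-y was above 9 on the log2 scale in Sox9+ e10.5 replicates 1 and 2 and Sox9+ e15.5 replicate 1, and at most 6.35 in the other 12 arrays. The leukocyte gene Ptprc was 8.12, 10.64 and 10.09 in Sox9+ cells at p23, against 14.28 to 14.64 in GFP- cells at p23. Sox9 was 10.13 to 11.21 in Ngn3+ cells and 11.84 to 12.14 in the Sox9+ embryonic arrays, and Neurog3 was 11.53 to 12.21 in Ngn3+ cells against 11.66 to 12.12 in Sox9+ cells at e15.5, so both embryonic sorts held Neurog3 transcript. Sox9 was still 8.68 to 10.08 in GFP- cells at p23, against 11.62 to 12.10 in Sox9+ cells at p23. Counts below are also given without the 3 arrays with Hbb-y above 9, which leaves 1 array at e10.5 and 2 Sox9+ arrays at e15.5, and without the 2 Sox9+ p23 arrays with Ptprc above 9, which leaves 1 Sox9+ array at p23. In those fits the lone array is assumed to vary like the other groups, so a call lost there does not show a smaller change.

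All levels are log2(intensity + 16), on which a step of 1 is a 2-fold difference for a bright gene and more for a dim one. A call means an adjusted p under 0.05 (limma, Benjamini-Hochberg over the 16883 genes kept). Of the 37 genes, 22 had their highest group mean in Sox9+ cells at p23, 6 in Sox9+ cells at e15.5, 4 in Ngn3+ cells, 4 in GFP- cells and 1, Lama1, in Sox9+ cells at e10.5. The lowest mean was in GFP- cells for 17 and in Sox9+ cells at e15.5 for 10. Within the 3 Sox9+ stages p23 was highest for 28. Every gene was called in at least 1 of the 5 comparisons, and 20 were called with a change of at least 1 in at least 1 comparison. A single comparison called 28.2% to 57.5% of all genes. These counts and those of the highest and lowest group were not made over all genes, so they do not set the 37 apart. The comparisons share arrays and are not independent of each other.

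**Figure D1:**
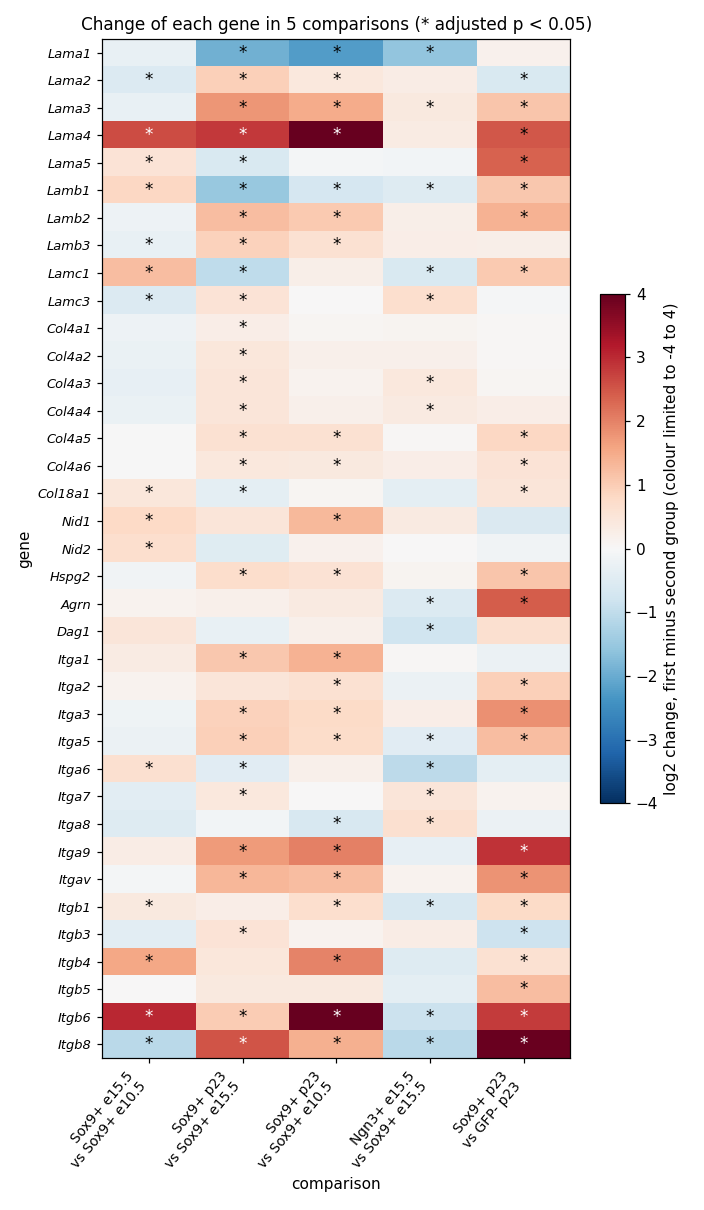
Log2 change of each of the 37 genes (rows) in the 5 comparisons (columns), first-named minus second-named group, with colour from blue (lower in the first) to red (higher) and stars at adjusted p under 0.05. The columns for Sox9+ cells at p23 hold most of the red cells, with 22, 19 and 21 genes called higher against e15.5, e10.5 and GFP- cells, and the Ngn3+ column holds 10 blue starred genes.

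From e10.5 to e15.5 in Sox9+ cells, 11 of the 37 genes rose, 4 fell and 22 were not called, so 40.5% were called, where 28.2% of all genes were (12.2% higher and 16% lower). The risers were Lama4, Lama5, Lamb1, Lamc1, Col18a1, both nidogens, Itga6, Itgb1, Itgb4 and Itgb6, and Lama2, Lamb3, Lamc3 and Itgb8 fell. The median change of the 37 was -0.03, and that of all genes was -0.05. By at least 1, 4 rose and 1 fell, where 5.15% of all genes changed that far. The groups did not overlap for 27 of the 37, where this held for 57.3% of all genes. Without the 3 arrays with high Hbb-y, which leaves 1 array at e10.5, 6 rose and 2 fell. Of the 15 calls only Lama4, Lamb1, Lamc1, Itgb4 and Itgb6 held under all 11 other settings and all 6 fits that left out an array, and against the 1 remaining e10.5 array without high Hbb-y the change of Lamb1 was 0.93 (limma adjusted p = 0.0584).

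Between e15.5 and p23 in Sox9+ cells, 22 of the 37 rose, 6 fell and 9 were not called. That is 75.7% called, where 57.5% of all genes were (30.7% higher and 26.8% lower), with a median change of 0.49 in the 37 and 0.05 in all genes. The groups did not overlap for 34 of the 37, where they did not for 72.7% of all genes. All 6 collagen IV genes, 6 integrin alpha subunits, 3 beta subunits, 3 alpha laminins, Lamb2, Lamb3, Lamc3 and Hspg2 rose. Lama1, Lama5, Lamb1, Lamc1, Col18a1 and Itga6 fell. By at least 1, 8 rose and 3 fell, where 13% of all genes changed that far. With only the 1 p23 array of low Ptprc, 18 rose and 4 fell, and without the Hbb-y-high arrays 21 rose and 5 fell. Of the 28 calls, 20 held under all 11 other settings and all 6 fits that left out an array.

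From e10.5 to p23, 19 of the 37 rose, 3 fell (Lama1, Lamb1 and Itga8) and 15 were not called, so 59.5% were called, where 41% of all genes were (17.7% higher and 23.3% lower). The median change was 0.41 in the 37 and -0.01 in all genes. The groups did not overlap for 24 of the 37, where 50.9% of all genes had such groups. With only the 1 e10.5 array of low Hbb-y, 14 rose and 1 fell, and with only the 1 p23 array of low Ptprc, 15 rose and 2 fell.

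Sox9+ cells set against GFP- cells at p23 had 21 of the 37 genes higher, 2 lower (Lama2 and Itgb3) and 14 not called. That is 62.2% called, where 36% of all genes were (21.5% higher and 14.5% lower), with a median difference of 0.65 in the 37 and 0.07 in all genes. In 15 genes the difference was at least 1, all higher in Sox9+ cells, where 14.7% of all genes differed that far, and the groups did not overlap for 26 of the 37, where 47.3% of all genes had such groups. With only the 1 Sox9+ p23 array of low Ptprc, 19 were higher and 1 lower. Of the 23 calls, 21 held under all 11 other settings and all 6 fits that left out an array, and the exceptions were Col18a1 and Itgb4. Among the GFP- arrays, replicate 1 was the highest in 26 of the 37, where it was for 36.9% of all genes. Replicate 3 was the lowest in 21, where it was for 33.6% of all genes.

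The laminin alpha chains carry the globular domains that receptors bind. Between e10.5 and p23 in Sox9+ cells Lama1 fell, Lama2, Lama3 and Lama4 rose, and Lama5 was not called. Lama1, the alpha chain of the early embryonic laminin, was 9.92, 9.68 and 9.79 in Sox9+ cells at e10.5, 9.67, 9.46 and 9.33 at e15.5, and 7.63, 7.64 and 7.41 at p23. GFP- cells at p23 held 7.37, 7.41 and 7.38. All 6 embryonic Sox9+ arrays lay above all p23 arrays, and at p23 both sorts were below the table's median intensity. Lama1 fell by 1.92 between e15.5 and p23 (SE 0.14, limma adjusted p = 9.23e-08), and its difference of 0.18 from GFP- cells was not called (adjusted p = 0.346).

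Lama4, the alpha chain of laminins around blood vessels and in several mesenchymal tissues, moved the other way. It was 5.59, 5.21 and 5.70 in Sox9+ cells at e10.5, 7.45, 8.31 and 8.58 at e15.5, and 11.02, 10.84 and 10.97 at p23. GFP- cells at p23 held 8.69, 8.41 and 8.26. No stage overlapped another, and Sox9+ cells at p23 lay above every GFP- array. The gene rose by 2.61 (SE 0.30) between e10.5 and e15.5, by 2.83 between e15.5 and p23 and by 5.44 between e10.5 and p23, and it was 2.49 higher in Sox9+ than in GFP- cells (limma adjusted p at most 4.26e-05 in each).

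Lama4 is also carried by endothelial and mesenchymal cells, and their markers moved with it in some comparisons and not in others. The summed intensity of 12 endothelial markers was 1097.4 to 1323.4 in Sox9+ cells at e10.5, 1011.2 to 1094.2 at e15.5 and 1637.3 to 2089.9 at p23, against 4459.2 to 5231.5 in GFP- cells. All 12 were called higher at p23 than at e15.5, and none was at 0. The sum of 11 mesenchyme markers was 2393.6 to 2613 at e10.5, 3152.9 to 4604.3 at e15.5 and 3952.7 to 4587.9 at p23, against 6750.2 to 8627.5 in GFP- cells. The mean level of these 11 was 7.97, 8.08 and 8.34 in the Sox9+ e15.5 arrays in which Lama4 was 7.45, 8.31 and 8.58. It was 7.83, 8.23 and 8.59 in the Ngn3+ arrays in which Lama4 was 9.13, 7.83 and 8.40. The part of such cells in the changes of Lama4 was not tested.

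Lama5, the widespread alpha chain of epithelial basement membranes, was 8.85, 8.65 and 8.65 in Sox9+ cells at e10.5, 9.15, 9.33 and 9.32 at e15.5, and 8.61, 8.84 and 8.48 at p23. In GFP- cells it was 6.28, 6.47 and 6.11. The e15.5 arrays were the highest, and every GFP- array lay below all Sox9+ arrays. Lama5 rose by 0.55 (SE 0.13, limma adjusted p = 0.00903) and then fell by 0.62 (adjusted p = 0.00137), and it was 2.36 higher in Sox9+ than in GFP- cells (adjusted p = 3.61e-09).

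Lama3, the alpha chain of laminin in epithelia anchored by hemidesmosomes, was 6.46, 6.59 and 6.57 in Sox9+ cells at e10.5, 6.31, 6.21 and 6.21 at e15.5, and 8.02, 8.20 and 7.85 at p23. GFP- cells held 7.05, 6.95 and 6.75. It was above the table's median intensity only in the Sox9+ p23 arrays, which rose by 1.78 over e15.5 (SE 0.11, limma adjusted p = 3.28e-08) and were 1.104 above GFP- cells (adjusted p = 2.54e-06). Its partner Lamb3 was 7.17, 7.27 and 7.10 at e15.5 and 8.11, 8.25 and 7.91 at p23, a rise of 0.91 (adjusted p = 1.51e-05). Unlike Lama3, Lamb3 overlapped between Sox9+ and GFP- cells at p23, where it was 7.94, 7.88 and 7.75 in GFP- cells (adjusted p = 0.11).

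Lama2, the chief laminin alpha chain of muscle and nerve, was highest in GFP- cells. It was 7.98, 7.72 and 7.37 in Sox9+ cells at p23 and 8.52, 8.38 and 8.01 in GFP- cells, a difference of -0.61 (SE 0.15, limma adjusted p = 0.00492). Within Sox9+ cells it fell by 0.55 between e10.5 and e15.5 and rose by 0.97 between e15.5 and p23 (adjusted p = 0.000162). With only the 1 Sox9+ p23 array of low Ptprc, the difference from GFP- cells was -0.32 (adjusted p = 0.213).

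Lamb1 and Lamc1, the beta and gamma chains most laminins share, peaked together at e15.5. Lamb1 was 10.29, 10.11 and 10.02 in Sox9+ cells at e10.5, 10.96, 10.88 and 11.03 at e15.5, and 9.10, 9.77 and 9.48 at p23, against 8.66, 8.47 and 7.99 in GFP- cells. Lamc1 was 10.37, 10.23 and 10.23 at e10.5, 11.52, 11.47 and 11.54 at e15.5, and 10.39, 10.72 and 10.40 at p23, against 9.62, 9.61 and 9.13 in GFP- cells. For both, the 3 e15.5 arrays were above all other Sox9+ arrays and the 3 GFP- arrays were the lowest. Lamb1 rose by 0.82 and then fell by 1.51 (limma adjusted p = 1.91e-05), and Lamc1 rose by 1.24 and fell by 1.004 (adjusted p = 6.03e-05). In Sox9+ cells at p23 both were above GFP- cells, by 1.08 for Lamb1 and 1.05 for Lamc1.

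Lamb2, the beta chain that takes the place of Lamb1 in mature basement membranes of kidney, muscle and vessel, rose when Lamb1 fell. It was 8.13, 8.31 and 8.37 in Sox9+ cells at e10.5, 8.20, 8.01 and 7.99 at e15.5, and 9.18, 9.35 and 9.41 at p23, against 8.14, 7.64 and 7.98 in GFP- cells. The p23 Sox9+ arrays were above all others. The rise over e15.5 was 1.25 (SE 0.15, limma adjusted p = 2.23e-05), and the difference from GFP- cells was 1.40. Lamc3, a dim gamma chain gene, stayed within 0.85 over the 15 arrays. It was lowest in Sox9+ cells at e15.5, with 7.06, 6.94 and 6.87 there and 7.59, 7.58 and 7.36 at p23, a rise of 0.56 (adjusted p = 0.00316).

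**Figure D2:**
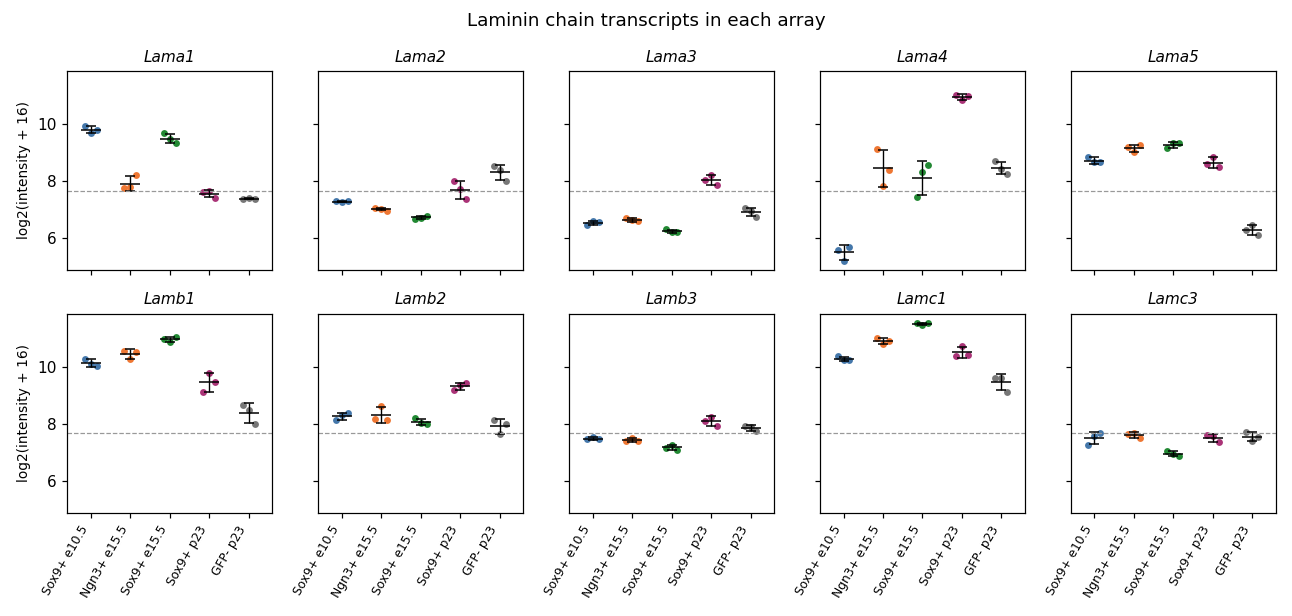
Level of each laminin chain, as log2(intensity + 16), in every array of the 5 groups; points are arrays, horizontal lines the mean, whiskers 1 SD (n = 3), and the dashed line the table's median intensity. Lama1 falls below the dashed line in Sox9+ cells at p23 while Lama4 reaches 10.84 to 11.02, Lamb1 and Lamc1 peak in Sox9+ cells at e15.5, and Lama5 is lowest in GFP- cells (6.11 to 6.47).

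The collagen IV genes moved little. Col4a1, which with Col4a2 makes the common collagen IV trimer, stayed between 8.22 and 8.70 over all 15 arrays, and Col4a2 between 7.54 and 8.15. In Sox9+ cells none of the 6 chains was called between e10.5 and e15.5, and all 6 rose between e15.5 and p23, by 0.28 (Col4a1) to 0.62 (Col4a5). Col4a1 was 8.22, 8.36 and 8.49 at e15.5 and 8.68, 8.59 and 8.63 at p23, and Col4a2 was 7.54, 7.66 and 7.65 at e15.5 and 8.15, 8.06 and 8.03 at p23. Each pair of groups stood clear of the other, but the Col4a1 call (limma adjusted p = 0.0454) was lost in 5 of the 6 fits that left out an array, and that of Col4a2 (adjusted p = 0.00203) in none. Only the calls of Col4a2 and Col4a5 held under all 11 other settings as well, and those of Col4a3, Col4a4 and Col4a6 were lost after quantile normalization.

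Of the chains with narrower distribution, Col4a3 and Col4a4, which with Col4a5 form the trimer of the kidney filter, each rose by 0.49 between e15.5 and p23 and were dim throughout. Col4a5 was 7.78, 7.73 and 7.76 in Sox9+ cells at e15.5 and 8.48, 8.30 and 8.35 at p23, against 7.78, 7.30 and 7.59 in GFP- cells. Its Sox9+ p23 arrays were above all others, and it was 0.82 higher there than in GFP- cells (SE 0.17, limma adjusted p = 0.00121). Its neighbour Col4a6 was 7.14, 7.12 and 7.07 in Sox9+ cells at p23 and 6.63, 6.55 and 6.56 in GFP- cells, a difference of 0.53 (adjusted p = 0.00303). These were the only collagen IV chains called between the p23 sorts, and the others differed there by 0.05 to 0.27.

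The proteoglycans were higher in Sox9+ than in GFP- cells at p23. Agrn, whose protein binds laminin and dystroglycan, was 9.45, 9.71 and 9.54 in Sox9+ cells at p23 and 7.43, 7.33 and 6.70 in GFP- cells, a difference of 2.42 (SE 0.18, limma adjusted p = 6.78e-08). It was 9.03 to 9.50 at e10.5 and 9.23 to 9.47 at e15.5, and no change between the Sox9+ stages was called. Hspg2 was 8.29, 8.24 and 8.18 in Sox9+ cells at e15.5 and 8.94, 9.07 and 8.80 at p23, against 8.03, 7.73 and 7.68 in GFP- cells. It rose by 0.70 between e15.5 and p23 (adjusted p = 0.00039) and was 1.12 above GFP- cells (adjusted p = 4.52e-06). Col18a1, whose protein carries heparan sulphate and releases endostatin, was highest at e15.5, at 8.66, 8.51 and 8.72, against 8.05 to 8.40 at p23 and 8.11 to 8.24 at e10.5. Its rise of 0.46 (adjusted p = 0.0397) and fall of 0.38 (adjusted p = 0.0473) were each lost in 5 of the 6 fits that left out an array.

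Unlike the proteoglycans, neither nidogen was called between the p23 sorts. Nid1 was 6.99, 6.78 and 7.09 in Sox9+ cells at e10.5, 7.36, 7.83 and 8.07 at e15.5, and 8.31, 8.54 and 7.88 at p23, against 8.74, 8.97 and 8.75 in GFP- cells. GFP- cells were the highest group, but the difference of -0.57 was not called (limma adjusted p = 0.075). The rise of 1.29 between e10.5 and p23 was (SE 0.24, adjusted p = 0.000514). Nid2 was 7.33 to 7.61 at e10.5, then 7.85, 8.08 and 8.58 at e15.5, and 7.54 to 7.76 at p23, against 7.52 to 8.18 in GFP- cells. In both nidogens the e15.5 array with the least mesenchyme marker signal was the lowest and the one with the most was the highest. The mean mesenchyme marker levels in those arrays were 7.97, 8.08 and 8.34. That order is not particular to mesenchyme. Epithelial markers (11.70, 11.79 and 11.84) and acinar markers (10.39, 10.67 and 10.95) shared it. Endothelial markers (6.60, 6.59 and 6.70) and endocrine markers (11.90, 12.12 and 11.94) did not. The nidogens rose by 0.80 and 0.68 at e15.5, each call lost in 4 of the 6 fits that left out an array. The part of mesenchymal cells in these rises was not tested. Dag1 was 9.27 to 9.63 at e10.5, 9.85 to 10.18 at e15.5 and 9.53 to 9.80 at p23, with no change between Sox9+ stages called.

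**Figure D3:**
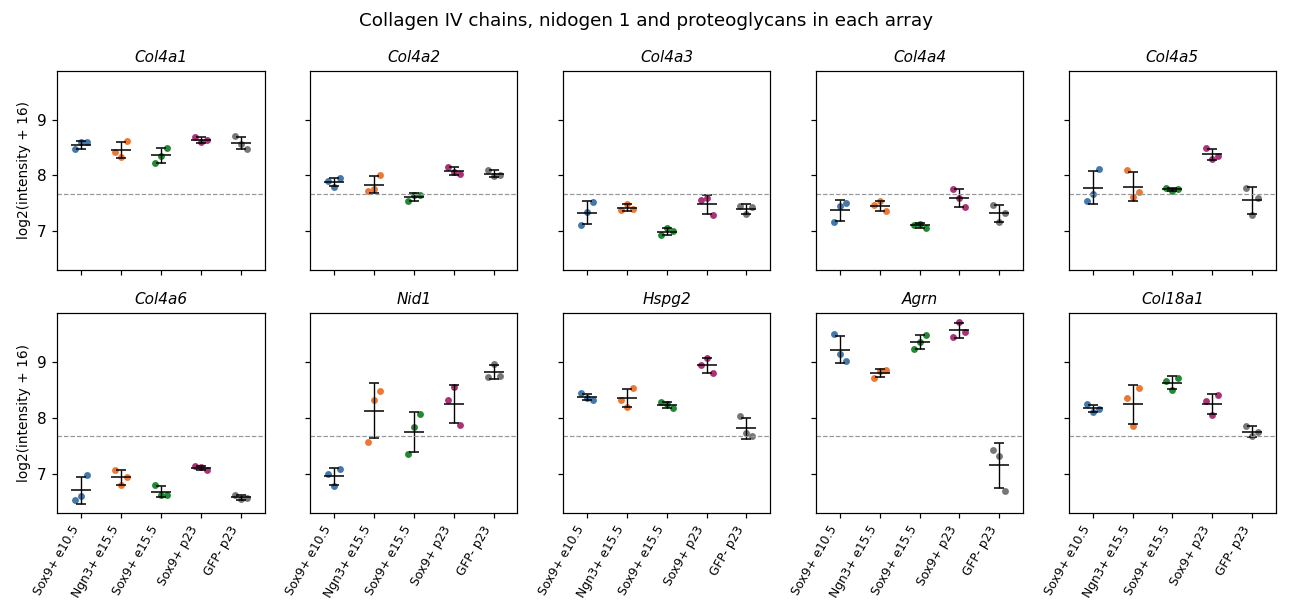
Level of the collagen IV chains, Nid1, Hspg2, Agrn and Col18a1, as log2(intensity + 16), in every array; points are arrays, horizontal lines the mean, whiskers 1 SD (n = 3), and the dashed line the table's median intensity. The collagen IV chains stay within narrow bands (8.22 to 8.70 for Col4a1), whereas Agrn is at 9.45 to 9.71 in Sox9+ cells at p23 and 6.70 to 7.43 in GFP- cells.

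Among the integrin alpha subunits, 6 of 9 rose in Sox9+ cells between e15.5 and p23 (Itga1, Itga3, Itga5, Itga7, Itga9 and Itgav) and Itga6 fell. Itgav, the alpha partner of Itgb3, Itgb5, Itgb6 and Itgb8, was 9.74, 9.80 and 9.67 at e10.5, 9.66, 9.66 and 9.62 at e15.5, and 11.49, 10.74 and 10.69 at p23, against 9.07, 9.27 and 9.18 in GFP- cells. The embryonic arrays lay within a narrow band, and p23 replicate 1 stood above the rest. Itgav rose by 1.32 between e15.5 and p23 (SE 0.18, limma adjusted p = 4.25e-05; 1.06 without p23 replicate 1) and was 1.80 higher in Sox9+ than in GFP- cells (adjusted p = 1.53e-06).

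Itga9, a partner of Itgb1 that binds tenascin C and other matrix proteins, was 7.79, 7.57 and 7.90 in Sox9+ cells at e10.5, 8.12, 7.92 and 8.11 at e15.5, and 9.74, 9.48 and 10.06 at p23, against 7.36, 7.03 and 6.20 in GFP- cells. It had the widest gap between the p23 sorts of the alpha subunits, with 2.90 (SE 0.29, limma adjusted p = 1.65e-06), and rose by 1.71 between e15.5 and p23 (adjusted p = 0.000291). Itga3, a laminin receptor subunit of epithelia, was 8.64, 8.38 and 8.40 at e10.5, 8.18, 8.35 and 8.41 at e15.5, and 8.94, 9.51 and 9.23 at p23, against 7.44, 7.46 and 7.33 in GFP- cells. The p23 Sox9+ arrays were again above all others, by 0.91 over e15.5 and by 1.82 over GFP- cells (adjusted p = 8.02e-08).

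Itga5, the fibronectin receptor subunit, was 7.93, 7.97 and 7.99 in Sox9+ cells at e10.5, 7.88, 7.61 and 7.69 at e15.5, and 8.74, 8.64 and 8.67 at p23, against 7.54, 7.56 and 7.21 in GFP- cells. The p23 Sox9+ arrays did not overlap any other group, and the gene was 0.96 above e15.5 (SE 0.13, limma adjusted p = 4.55e-05) and 1.25 above GFP- cells. Its ligand gene Fn1 fell by 1.74 between e10.5 and e15.5 (adjusted p = 1.86e-06). The collagen receptor subunit Itga1 was 6.4, 6.65 and 6.70 at e10.5, 6.53, 6.99 and 7.21 at e15.5, and 8.15, 7.92 and 7.86 at p23. It rose by 1.07 (adjusted p = 0.00447), but at p23 it overlapped with GFP- cells (8.34, 8.35 and 7.93). The other collagen receptor subunit, Itga2, separated the p23 sorts, at 8.13, 7.91 and 7.94 in Sox9+ cells against 7.13, 6.58 and 7.42 in GFP- cells, a difference of 0.95 (adjusted p = 0.00195).

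Itga6, the laminin receptor subunit that pairs with Itgb1 or Itgb4, was 10.70, 10.79 and 10.36 in Sox9+ cells at e10.5, 11.15, 11.29 and 11.38 at e15.5, and 10.89, 10.91 and 10.62 at p23, against 11.41, 11.37 and 10.83 in GFP- cells. Its rise of 0.66 (limma adjusted p = 0.0179) was lost in 3 and its fall of 0.47 (adjusted p = 0.0382) in 5 of the 6 fits that left out an array, and the p23 sorts overlapped. Itga7, a laminin receptor subunit of muscle, and Itga8, the nephronectin receptor subunit, were dim in every group. Itga7 rose by 0.43 between e15.5 and p23 (adjusted p = 0.0485), and Itga8 fell by 0.63 between e10.5 and p23 (adjusted p = 0.0388).

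Of the beta subunits, Itgb6 and Itgb8, whose dimers with Itgav bind latent TGF-beta, changed most. Itgb6 was 5.61, 5.63 and 5.92 in Sox9+ cells at e10.5, 8.54, 8.75 and 8.88 at e15.5, and 9.73, 9.73 and 9.73 at p23, against 7.04, 7.003 and 6.79 in GFP- cells. At e10.5 it was below the filter intensity in all 3 arrays, and no stage overlapped another. Itgb6 rose by 3.01 (SE 0.23, limma adjusted p = 1.48e-06), then by 1.01 (adjusted p = 0.00288), and was 2.79 higher in Sox9+ than in GFP- cells at p23 (adjusted p = 3.17e-07).

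Itgb8 was 9.34, 9.50 and 9.34 in Sox9+ cells at e10.5, 8.11, 8.35 and 8.49 at e15.5, and 10.73, 10.86 and 10.88 at p23, against 6.87, 6.90 and 6.85 in GFP- cells. It was thus lowest at the middle stage, where Itgb6 had already risen. The fall of 1.08 between e10.5 and e15.5 (SE 0.37, limma adjusted p = 0.044) was lost in each of the 6 fits that left out an array, with adjusted p up to 0.119 and changes of -1.16 to -0.97, and it was not called against the 1 e10.5 array of low Hbb-y (adjusted p = 0.309). The rise of 2.51 between e15.5 and p23 (adjusted p = 0.000109) and the difference of 3.95 from GFP- cells (adjusted p = 1.01e-06) were called in all of those leave-one-out fits.

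Itgb4, the hemidesmosome subunit that pairs with Itga6, was 7.55, 6.85 and 6.94 in Sox9+ cells at e10.5, 8.51, 8.64 and 8.80 at e15.5, and 9.12, 9.14 and 9.06 at p23, against 8.51, 8.47 and 8.51 in GFP- cells. It rose by 1.54 between e10.5 and e15.5 (SE 0.20, limma adjusted p = 0.000151), and the next step of 0.46 was not called (adjusted p = 0.0683). Its difference of 0.61 from GFP- cells (adjusted p = 0.0303) was lost in each of the 6 fits that left out an array. Itgb5, a vitronectin receptor subunit, was 8.63, 8.81 and 8.93 in Sox9+ cells at p23 and 7.60, 7.74 and 7.34 in GFP- cells, a difference of 1.23 (adjusted p = 0.000214), and no change between its Sox9+ stages was called.

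Itgb1, the common beta subunit of laminin, collagen and fibronectin receptors, was 11.36, 11.42 and 11.27 in Sox9+ cells at e10.5, 11.70, 11.78 and 11.79 at e15.5, and 11.95, 12.06 and 12.06 at p23, against 11.41, 11.27 and 11.13 in GFP- cells. The 3 stages stood in that order without overlap, and the change over the whole course was 0.67 (SE 0.13, limma adjusted p = 0.000643). The step of 0.40 from e10.5 to e15.5 was called (adjusted p = 0.031), and that of 0.27 from e15.5 to p23 was not (adjusted p = 0.0841). Itgb3, the vitronectin and fibrinogen receptor subunit of platelets, endothelium and osteoclasts, was highest in GFP- cells, at 7.45, 7.55 and 7.43 in Sox9+ cells at p23 against 8.24, 8.502 and 8.22 in GFP- cells. That difference was -0.84 (SE 0.16, adjusted p = 0.000798). The summed intensity of 11 leukocyte markers was 2206.7 to 5365.9 in Sox9+ cells at p23 against 54266.2 to 75008.4 in GFP- cells, and the part of leukocytes and vessels in the higher Itgb3 of GFP- cells was not tested.

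**Figure D4:**
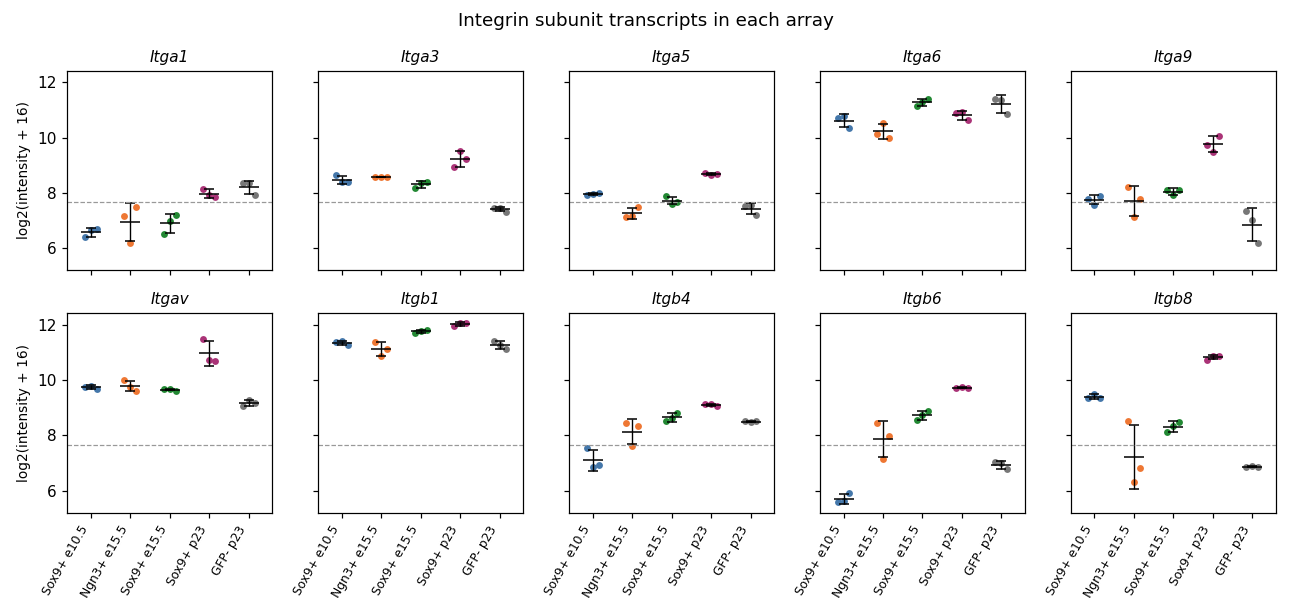
Level of 10 integrin subunits, as log2(intensity + 16), in every array; points are arrays, horizontal lines the mean, whiskers 1 SD (n = 3), and the dashed line the table's median intensity. Itgb6 climbs over the Sox9+ stages (5.61 to 5.92, 8.54 to 8.88 and 9.73), Itgb8 dips at e15.5 before reaching 10.73 to 10.88 at p23, and the Ngn3+ arrays are spread for both.

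Ngn3+ cells were compared with Sox9+ cells at e15.5. Both sorts held Neurog3 transcript, so this is not a contrast of endocrine progenitors with cells free of them. Summed intensity of 7 endocrine markers was 47612.4 to 53308.2 in Ngn3+ cells and 31028.8 to 35303.2 in Sox9+ cells. Of 6 acinar markers, 5 were lower in Ngn3+ cells. In this comparison 6 of the 37 genes were higher, 10 lower and 21 not called. That is 43.2% called, where 41.7% of all genes were (23.3% higher and 18.4% lower). That share is near the background, and the median difference was 0.04 in the 37 and in all genes alike. A difference of at least 1 was called in 0 higher and 3 lower genes (Lama1, Itga6 and Itgb8), where 5.19% of all genes differed that far. The groups did not overlap for 22 of the 37, where 56.2% of all genes had such groups. The lower genes were Lama1, Lamb1, Lamc1, Agrn, Dag1, Itga5, Itga6, Itgb1, Itgb6 and Itgb8, and the higher ones were Lama3, Lamc3, Col4a3, Col4a4, Itga7 and Itga8. After quantile normalization 2 were higher and 6 lower, and without the Sox9+ e15.5 array with high Hbb-y, in the fit that leaves out all 3 such arrays, 4 were higher and 7 lower. Only Lama1, Lamc1, Lamc3, Itga6 and Itgb1 kept their calls under all 11 other settings and all 6 fits that left out an array.

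Among the laminin chains, Lama1, Lamb1 and Lamc1 were lower in Ngn3+ cells, Lama3 and Lamc3 were higher, and the others were not called. Lama1 was 7.74, 7.79 and 8.20 in Ngn3+ cells against 9.67, 9.46 and 9.33 in Sox9+ cells, a difference of -1.58 (SE 0.14, limma adjusted p = 1.64e-05) and the widest of the 37 genes in this comparison. Lamc1 was 11.01, 10.79 and 10.89 in Ngn3+ cells against 11.52, 11.47 and 11.54 in Sox9+ cells, and Lamb1 was 10.56, 10.26 and 10.51 against 10.96, 10.88 and 11.03. Neither overlapped between the sorts, with differences of -0.61 for Lamc1 (adjusted p = 0.00568) and -0.52 for Lamb1 (adjusted p = 0.0366, lost in 5 of the 6 fits that left out an array). Lama5 overlapped, at 9.19, 9.001 and 9.25 in Ngn3+ cells against 9.15, 9.33 and 9.32 in Sox9+ cells, and so did Lama4, at 9.13, 7.83 and 8.40 against 7.45, 8.31 and 8.58.

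Of the integrin genes, 2 alpha subunits were lower, 2 higher and 5 not called, and 3 beta subunits were lower, 0 higher and 3 not called. Itga6 was 10.14, 10.52 and 9.997 in Ngn3+ cells against 11.15, 11.29 and 11.38 in Sox9+ cells, a difference of -1.05 (SE 0.18, limma adjusted p = 0.00129). Itgb1 was 11.38, 10.86 and 11.10 in Ngn3+ cells against 11.70, 11.78 and 11.79 in Sox9+ cells, a difference of -0.64 (adjusted p = 0.00305), and neither gene overlapped. Dag1 was 9.56, 8.56 and 9.50 in Ngn3+ cells against 9.85, 9.97 and 10.18 in Sox9+ cells (-0.79, adjusted p = 0.0205), Agrn was 8.72, 8.84 and 8.85 against 9.23, 9.35 and 9.47 (-0.55, adjusted p = 0.024), and Itga5 was 7.12, 7.16 and 7.50 against 7.88, 7.61 and 7.69 (-0.46, adjusted p = 0.0132). Itgb4 was 8.46, 7.62 and 8.33 against 8.51, 8.64 and 8.80, lower in every array, but its difference of -0.51 was not called (adjusted p = 0.0571).

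Itgb6 and Itgb8 varied among the Ngn3+ arrays. Itgb6 was 8.46, 7.16 and 7.99 in Ngn3+ cells against 8.54, 8.75 and 8.88 in Sox9+ cells (-0.85, limma adjusted p = 0.0131). Itgb8 was 8.53, 6.33 and 6.83 in Ngn3+ cells against 8.11, 8.35 and 8.49 in Sox9+ cells (-1.09, adjusted p = 0.0317). Ngn3+ replicate 1 was above every Sox9+ e15.5 array for Itgb8, and Ngn3+ replicate 2 was the lowest for both genes. Without replicate 2 the differences were -0.50 for Itgb6 and -0.64 for Itgb8 (adjusted p = 0.135), and without replicate 1 that of Itgb8 was -1.74. Ngn3+ replicate 2 had the lowest value of its group in 19 of the 37 genes, among them 9 of the 15 integrin subunits, where it was lowest for 41.1% of all genes. Sox9 itself was 11.21, 10.13 and 11.14 in the Ngn3+ arrays.

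The 6 genes called higher in Ngn3+ cells were all of low level, with differences of 0.35 (Col4a4) to 0.66 (Lamc3). Lamc3 was 7.64, 7.70 and 7.50 in Ngn3+ cells against 7.06, 6.94 and 6.87 in Sox9+ cells (limma adjusted p = 0.00334). For 5 of the 6 every group mean was below the table's median intensity, and Lama3, the sixth, was below it in both e15.5 sorts (6.70, 6.62 and 6.59 in Ngn3+ cells, 6.31, 6.21 and 6.21 in Sox9+ cells).

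Genes that work beside the 37 were counted from lists drawn from the same biology. Of 19 measured adaptors of adhesion sites, which tie integrins to actin, 11 were higher and 1 lower in Sox9+ cells at p23 than at e15.5, where 30.7% of all genes were higher and 26.8% lower. Against GFP- cells 14 were higher and 0 lower, where 21.5% of all genes were higher and 14.5% lower. The shares of all genes in these comparisons are the background for the lists that follow. The largest of these were Tns1 (tensin), 2.67 above e15.5 and 2.27 above GFP- cells, and Fermt1 (kindlin, an integrin activator), 2.62 above GFP- cells. Tln2 (a talin) was the exception at p23, where it fell by 1.16 against e15.5. In Ngn3+ cells 2 of the 19 adaptors were higher and 6 lower than in Sox9+ cells, where 23.3% of all genes were higher and 18.4% lower, the lower ones including Fermt1 (-1.0005) and Tln2 (-0.99).

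Other basement membrane proteins ran against the collagen IV genes at p23, with 4 of 19 higher and 10 lower than at e15.5, where the list's median change was -0.48. Tinag, a tubular basement membrane antigen known from kidney, rose by 4.21 between e10.5 and e15.5 and then fell by 2.14, and it differed by -2.27 between Ngn3+ and Sox9+ cells. At p23, Fbln1 (a fibulin) differed from e15.5 by -1.71 and Frem2 (a Fraser complex protein) by -1.44. Against GFP- cells 6 of the 19 were higher and 2 lower, with Fras1 2.60, Smoc1 1.63 and Pxdn 1.61 higher in Sox9+ cells. Pxdn is the peroxidasin that cross-links collagen IV.

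Of 8 measured hemidesmosome genes and other laminin receptors, 4 were higher and 2 lower at p23 than at e15.5, where 30.7% of all genes were higher and 26.8% lower, and 6 were higher and 0 lower than in GFP- cells. Bcam, a receptor for Lama5 laminins, was 0.84 above e15.5 and 2.21 above GFP- cells, whereas the hemidesmosome plakin Dst fell by 1.72 between e15.5 and p23. Among 15 enzymes and inhibitors that process matrix, 8 fell and 4 rose from e15.5 to p23. The metalloproteinase inhibitors Timp3 and Timp2 rose by 3.44 and 1.95, and the collagen lysyl hydroxylase Plod2 fell by 1.93. Of the 11 other integrin subunits, mostly of leukocytes, 0 were higher and 6 lower in Sox9+ than in GFP- cells, with differences of -4.25 for Itga4, -2.27 for Itgal and -2.23 for Itgb2.

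The lists of cell type markers bear on how each sort was composed. All 6 epithelial markers were higher in Sox9+ than in GFP- cells at p23, with summed intensities of 33265.2 to 36591.1 against 8299.1 to 12316.7. In that comparison 6 of 12 endothelial, 7 of 11 mesenchyme and 10 of 11 leukocyte markers were lower in Sox9+ cells, and none was higher. Between e15.5 and p23 in Sox9+ cells, all 12 endothelial, 10 of 11 leukocyte and 1 of 11 mesenchyme markers rose. All 7 endocrine markers fell over that step, where 26.8% of all genes did. From e10.5 to e15.5, 5 of 6 acinar markers rose and 0 fell, where 12.2% of all genes rose. Summed acinar intensity at p23 was 33499.1 to 38200.7 in Sox9+ cells and 41228 to 44692.4 in GFP- cells. In Ngn3+ cells 5 of 12 endothelial, 2 of 11 mesenchyme and 2 of 11 leukocyte markers were higher than in Sox9+ cells and none was lower. In that comparison 23.3% of all genes were higher and 18.4% lower, so the mesenchyme and leukocyte counts are not above the background. No marker was at 0 in any array. The part of these cell types in the changes of the 37 genes was not tested.

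**Figure D5:**
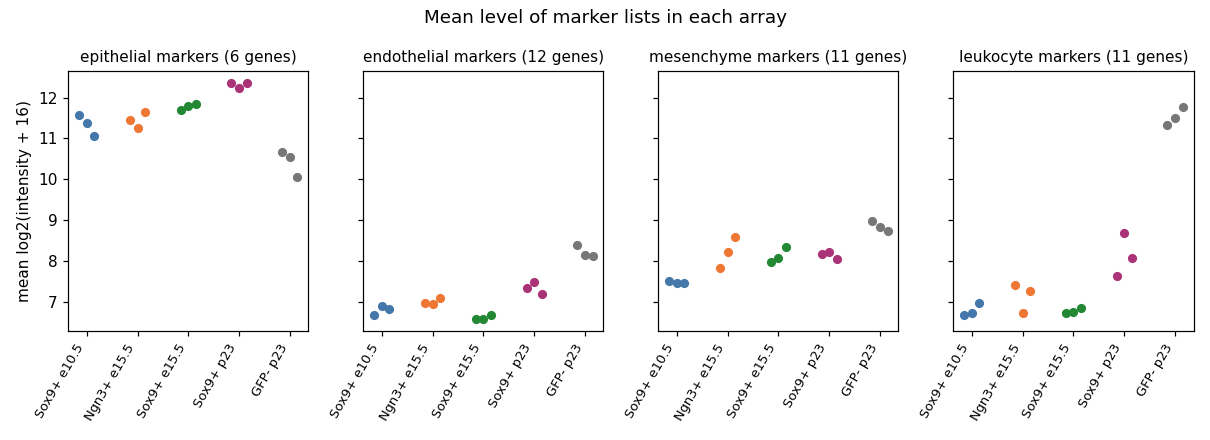
Mean log2(intensity + 16) of the epithelial, endothelial, mesenchyme and leukocyte marker lists in each of the 15 arrays, by group; each point is an array. GFP- cells are lowest for epithelial and highest for the other lists, Sox9+ cells at p23 are between the embryonic arrays and GFP- cells for endothelial and leukocyte markers, and the mesenchyme mean spreads among the e15.5 arrays of both sorts.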

How the data were processed

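The authors deposited 1 table of linear intensity values per probe set for all 15 arrays, and the submitters' processing notes name PLIER and Affymetrix Expression Console 1.1. Whether arrays were normalized to each other is not stated in those notes or the labels. Per the labels' protocols, each reaction amplified 20 ng of total RNA. The table holds 35557 probe sets, of which 21789 name 1 gene, 1621 several and 12147 none, by GEO's platform annotation, with 21698 matched by gene ID; array medians were 165.5 to 211.7. The probe set with the highest mean stood for each of 19938 genes, and 16883 passed the filter at the 30th percentile. Values were taken as log2(intensity + 16) with no further normalization. All arrays entered 1 limma fit (limma 3.58.1, R 4.3.3; Python 3.11.15 for the rest), with a mean per group, 5 contrasts and Benjamini-Hochberg adjustment over all genes kept within a contrast. The number of arrays limits the precision. With 3 arrays against 3 an exact permutation test cannot go below p = 0.1, so none was run. The fit was tested on simulated data. The genes and lists were chosen with earlier results of these data known. For genes called with a change of at least 1, array values are given for the groups of that comparison, not always for all 5 groups. Non-member lists are given by counts with at most 3 called genes, those of largest change, and a few others named after their values were seen. Replicate numbers were not treated as pairing the arrays in the main fit.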

Additional observations from a re-analysis of the deposited data

How the results depend on the processing

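No gene of the 37 changed direction with its call under any setting; over the 37 genes and 5 comparisons, 3097 values kept their side of the threshold, 208 lost a call and 74 gained one. The count for Sox9+ cells at e15.5 against e10.5 was 11 higher and 4 lower. It became 7 higher after quantile normalization, 7 lower with array weights, 2 lower with the replicate number as a block, 8 lower with only the 2 groups fitted, and 6 higher and 2 lower without the arrays with high Hbb-y, a setting chosen after seeing the data that leaves 1 array at e10.5. Leaving out each array in turn gave 6 to 11 higher and 0 to 6 lower; 6 or 7 were higher without e10.5 replicate 2 or 3 or e15.5 replicate 2 or 3, and 0 were lower without replicate 3 of either stage, 1 without replicate 2 of either and 2 without e15.5 replicate 1. For p23 against e10.5, the 3 lower genes became 1 with array weights and 1 without the Hbb-y arrays. For Ngn3+ against Sox9+ cells, 6 higher and 10 lower became 2 higher and 6 lower after quantile normalization, 2 higher with the filter at the table median and 3 higher with the replicate block; leaving out arrays gave 2 to 5 higher and 5 to 10 lower, the low ends without Sox9+ e15.5 replicate 3. For Sox9+ against GFP- cells at p23, the 2 lower genes became 4 with median centring and 1 without the Ptprc-high arrays, also chosen after seeing the data, which leaves 1 Sox9+ array at p23. The cause was not tested. Over all genes the e15.5 against e10.5 calls, 4754, became 2835 after quantile normalization, 7149 with only the 2 groups, 2673 without the Hbb-y arrays and 1840 to 2179 without replicate 2 or 3 of either stage. The Ngn3+ calls, 7034, became 4127 after quantile normalization and 4644 or 3757 without Sox9+ e15.5 replicate 2 or 3, and the p23 against e10.5 calls, 6916, became 3559 without the Hbb-y arrays. Arrays of the same replicate number correlated at -0.487 to 0.198 in their deviations from the group mean, and between e15.5 and p23 each array matched its own number best. With 3 arrays per group these correlations cannot settle whether the numbers pair any arrays. Changes in the 6 genes whose group means all lie below the table's median intensity are the least well measured, as the offset compresses them.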
